A study of Rattus norvegicus with 62 samples.

Results

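The data described here are the 14 liver arrays titled 5w DEN30/PB (4 arrays), 5w TAA/PB (5 arrays) and 5w MP/PB (5 arrays), out of 62 arrays in the study. They were selected by title alone, and no measured value was used. The comparison sets livers initiated with a genotoxic carcinogen against livers initiated with non-genotoxic carcinogens, over all genes, with the TAA/PB and MP/PB groups given equal weight.

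All animals were males of Crj:CD(SD)IGS, a Sprague-Dawley colony. An initiator was given over 1 to 2 weeks. The DEN30 group received 30 mg/kg diethylnitrosamine, the TAA group 45 mg/kg thioacetamide and the MP group 100 mg/kg methapyrilene. The dose unit is written mpk in the labels and was read as mg/kg. Following 2 weeks without treatment, all 3 groups drank phenobarbital (PB) at 500 ppm, and liver was taken at partial hepatectomy once PB had been given for 1 week (5w). Every liver compared here had therefore received both an initiator and PB. The same rats gave a second liver sample at the end of the study (10w), which is used below for levels only. Each array holds RNA from whole liver of 1 animal, so fewer cells of a type and less RNA per cell cannot be told apart. The comparison is between carcinogen groups, so it does not show which side departed from an untreated liver.

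Diethylnitrosamine is a nitrosamine that CYP2E1 converts in centrilobular hepatocytes to an ethylating species, which forms DNA adducts. Thioacetamide is oxidised by CYP2E1 and flavin-containing monooxygenases to metabolites that bind protein, and methapyrilene is an antihistamine withdrawn for its hepatic carcinogenicity in rats. Neither is regarded as acting mainly through DNA damage. Initiated hepatocytes grow under phenobarbital into foci of altered cells, for which the placental form of glutathione S-transferase (Gstp1) is the classical marker in rats.

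Median signals of the 14 arrays lay between 105.0 and 123.5, with 51.0% to 54.5% of probe sets at or above a signal of 100, and all arrays had been scaled to a trimmed mean near 500.2. Alb, the hepatocyte albumin gene, lay between 46290 and 58395 in DEN30/PB and between 51704 and 73538 in the other groups. Across the study the arrays fell into 2 sets along the first component of the residuals (30 and 32 arrays, 11.8% of the variance), which the labels do not name. In every group replicates 1 and 3 were in set 1 and replicates 2 and 4 in set 2, so the set follows the replicate number of the titles; the arrays of replicate 5 fell in either. Each set held 2 DEN30/PB arrays, with 2 arrays of each other group in set 1 and 3 of each in set 2.

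Few genes separated DEN30/PB from the non-genotoxic groups at 5w. Of 10491 genes tested, 6 passed the limma test at an adjusted p of 0.05, which is 0.0572% of the genes tested. Adam8, Lox, Gstp1 and Gria3 were higher in DEN30/PB (4 genes, 0.0381%), and Hsd11b1 and Cela1 were lower (2 genes, 0.0191%). At an unadjusted p below 0.05 there were 813 genes (7.75%), 447 higher (4.26%) and 366 lower (3.49%). The median difference over all genes was 0.01 on the log2 scale. Differences throughout are on the scale of log2(signal + 25), DEN30/PB minus the mean of TAA/PB and MP/PB unless another group is named, and they understate the change of genes with low signals.

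**Figure D1:**
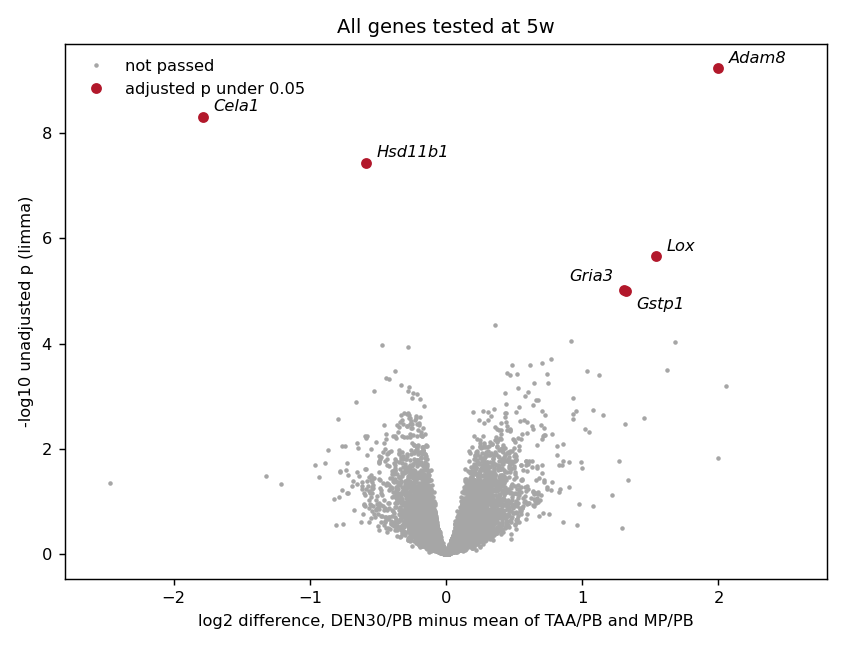
Log2 difference (horizontal axis) against -log10 of the unadjusted limma p (vertical axis) for the 10491 genes tested, 4 arrays against 5 and 5. The 6 red points passed at an adjusted p of 0.05: Adam8 (1.99), Lox (1.54), Gstp1 (1.32) and Gria3 (1.31) on the right, Cela1 (-1.79) and Hsd11b1 (-0.59) on the left.

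Promoter sequence was available for 3 of these 6 genes, Gstp1, Adam8 and Cela1, and is printed because these genes differed in opposite directions and include the marker of foci. Each is the RefSeq window of 300 bases on build GRCr8, 5′ to 3′ on the gene's strand, from 250 bases before the annotated start to 50 after it. Capitals mark matches to any of 4 motifs searched on both strands: TGANTCA (the AP-1 site), TGACNNNGC (the antioxidant response element core), GGGCGG (the GC box) and TATAAA (the TATA box). The windows lie at chr1:210769656-210769955 (minus strand) for Gstp1, chr1:204218273-204218572 (minus strand) for Adam8 and chr7:133665012-133665311 (minus strand) for Cela1.
Gstp1: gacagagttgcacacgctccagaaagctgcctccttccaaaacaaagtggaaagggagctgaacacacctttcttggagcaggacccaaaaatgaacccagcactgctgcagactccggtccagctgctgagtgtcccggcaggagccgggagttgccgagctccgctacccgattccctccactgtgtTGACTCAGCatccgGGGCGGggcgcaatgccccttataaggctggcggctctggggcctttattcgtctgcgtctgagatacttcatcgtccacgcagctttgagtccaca
Adam8: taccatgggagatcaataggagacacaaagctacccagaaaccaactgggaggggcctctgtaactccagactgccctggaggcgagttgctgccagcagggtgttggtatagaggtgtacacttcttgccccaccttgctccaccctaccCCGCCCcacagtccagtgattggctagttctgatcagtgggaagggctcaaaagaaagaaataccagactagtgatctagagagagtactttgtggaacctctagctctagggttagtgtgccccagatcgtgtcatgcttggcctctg
Cela1: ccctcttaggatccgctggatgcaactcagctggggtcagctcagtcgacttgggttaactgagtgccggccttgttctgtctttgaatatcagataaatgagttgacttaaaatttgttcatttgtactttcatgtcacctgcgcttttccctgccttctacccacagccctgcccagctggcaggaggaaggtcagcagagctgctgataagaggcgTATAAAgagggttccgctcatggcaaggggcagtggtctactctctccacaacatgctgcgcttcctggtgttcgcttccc
In the Gstp1 window the run TGACTCAGC, which starts 61 bases before the annotated start, matched both the AP-1 site and the overlapping antioxidant response core, and a GC box followed 47 bases before the start. Among 33469 promoter windows of this length, 7.33% held the AP-1 letters, 12.1% the antioxidant response core, 33.1% the GC box and 14.2% the TATA box. The Adam8 window held a GC box on the opposite strand, printed as CCGCCC, 99 bases before the start. The Cela1 window held a TATA box 31 bases before the start and none of the other motifs. These matches describe the letters only.

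Of the 4 genes higher in DEN30/PB, Adam8 had the smallest p. It encodes a membrane metalloprotease-disintegrin best known from leukocytes and activated macrophages. Its signals in the 4 DEN30/PB livers were 269, 235, 348 and 203. In TAA/PB they were 51.6, 54.9, 91.8, 44.7 and 69.8, and in MP/PB 36.1, 40.9, 34.1, 52.9 and 14.3. All DEN30/PB arrays lay above all 10 others, which were each under the signal minimum of 100. The log2 difference was 1.99 ± 0.22 (SE, adjusted p = 6.35e-06). Set against that minimum, the DEN30/PB geometric mean was at least 2.59-fold higher. The difference was 1.72 ± 0.25 against TAA/PB alone (adjusted p = 0.0012) and 2.26 ± 0.25 against MP/PB alone (adjusted p = 6.18e-06). These contrasts use the same DEN30/PB arrays. A second Adam8 probe set stayed between 7.77 and 72.3 on all 14 arrays, under the minimum, and differed by -0.26 ± 0.25 (adjusted p = 0.964 over all probe sets).

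Lox encodes lysyl oxidase, the enzyme that crosslinks collagen and elastin. Signals were 702, 393, 401 and 625 in DEN30/PB. In TAA/PB they were 288, 144, 102, 191 and 106, and in MP/PB 165, 220, 194, 122 and 142. The groups did not overlap, and DEN30/PB was 2.91-fold higher (log2 difference 1.54 ± 0.26, adjusted p = 0.00586). Against TAA/PB the difference was 1.58 ± 0.30 (adjusted p = 0.0276), and against MP/PB it was 1.50 ± 0.30 (adjusted p = 0.0588), which did not pass. The call was lost without DEN30/PB replicate 1 (1.40, adjusted p = 0.0996) or replicate 4 (1.45, adjusted p = 0.0601). A second Lox probe set, with signals from 28.7 to 248, differed by 1.01 ± 0.32 (adjusted p = 0.622 over all probe sets).

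Gstp1 is the marker of altered hepatocyte foci. Its signals in DEN30/PB were 4016, 1565, 5807 and 1349, against 1321, 975, 1213, 849 and 904 in TAA/PB and 1362, 822, 1101, 1046 and 1031 in MP/PB. The DEN30/PB livers were uneven: replicates 1 and 3 stood well above every other array, whereas replicate 4 was slightly below the highest MP/PB array. The log2 difference was 1.32 ± 0.25, or 2.50-fold (adjusted p = 0.0178). Against TAA/PB (1.33 ± 0.28, adjusted p = 0.0667) and MP/PB (1.31 ± 0.28, adjusted p = 0.0791) it did not pass.

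The high and low DEN30/PB livers for Gstp1 belonged to different array sets. Replicates 1 and 3 were in set 1 and replicates 2 and 4 in set 2, so the difference was 1.93 within set 1 (adjusted p = 0.001) and 0.62 within set 2 (adjusted p = 0.316). In TAA/PB the set 1 arrays read 1213 to 1321 and the set 2 arrays 849 to 975, and in MP/PB they read 1101 to 1362 and 822 to 1046. The part of the array set in the result was not tested, beyond a fit with the set as a block, in which the difference was 1.26 (adjusted p = 1.82e-04). The Gstp1 call was lost without DEN30/PB replicate 1 (1.12, adjusted p = 0.263) or replicate 3 (0.95, adjusted p = 0.169), and when the spread was estimated from the 3 compared groups only (adjusted p = 0.174). It was also lost with all probe sets and no filter on signal (adjusted p = 0.0524).

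Gria3 encodes a subunit of the AMPA-type glutamate receptor, a neuronal ion channel. Signals were 195, 366, 436 and 261 in DEN30/PB, against 93.1, 55.0, 85.3, 277 and 110 in TAA/PB and 101, 127, 109, 104 and 87.1 in MP/PB. TAA/PB replicate 4 lay inside the DEN30/PB range, and the other 9 arrays lay below it. The log2 difference was 1.31 ± 0.25, or 2.48-fold (adjusted p = 0.0178). A second probe set, with signals from 4.61 to 195, gave 1.34 ± 0.38 (adjusted p = 0.571 over all probe sets). The Gria3 call was lost without DEN30/PB replicate 2, 3 or 4 (adjusted p = 0.137, 0.145 and 0.0601), in the fit of the 3 compared groups only (0.114) and with all probe sets and no filter (0.0576).

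Both genes that were lower in DEN30/PB encode enzymes. Hsd11b1 encodes 11-beta-hydroxysteroid dehydrogenase type 1, which regenerates active glucocorticoid inside hepatocytes. Its signals in DEN30/PB were 14734, 17289, 15584 and 15812. In TAA/PB they were 25750, 22616, 23198, 24505 and 24276, and in MP/PB 22156, 24172, 24317, 25599 and 21598. The groups were far apart relative to their spread, with a log2 difference of -0.59 ± 0.08, or 1.50-fold (adjusted p = 1.30e-04). It was nearly as large against each group alone, -0.60 ± 0.09 for TAA/PB (adjusted p = 0.0012) and -0.57 ± 0.09 for MP/PB (adjusted p = 0.0022).

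Cela1 encodes a chymotrypsin-like elastase, a serine protease best known from the pancreas. Its signals were 381, 254, 246 and 312 in DEN30/PB, against 718, 1060, 1249, 1110 and 550 in TAA/PB and 889, 1798, 1126, 976 and 2004 in MP/PB. No array overlapped, and DEN30/PB was 3.45-fold lower (log2 difference -1.79 ± 0.22, adjusted p = 2.64e-05). The difference was -1.53 ± 0.25 against TAA/PB (adjusted p = 0.0034) and -2.04 ± 0.25 against MP/PB (adjusted p = 2.27e-05). Adam8, Hsd11b1 and Cela1 kept their calls whichever of the 14 arrays was left out.

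**Figure D2:**
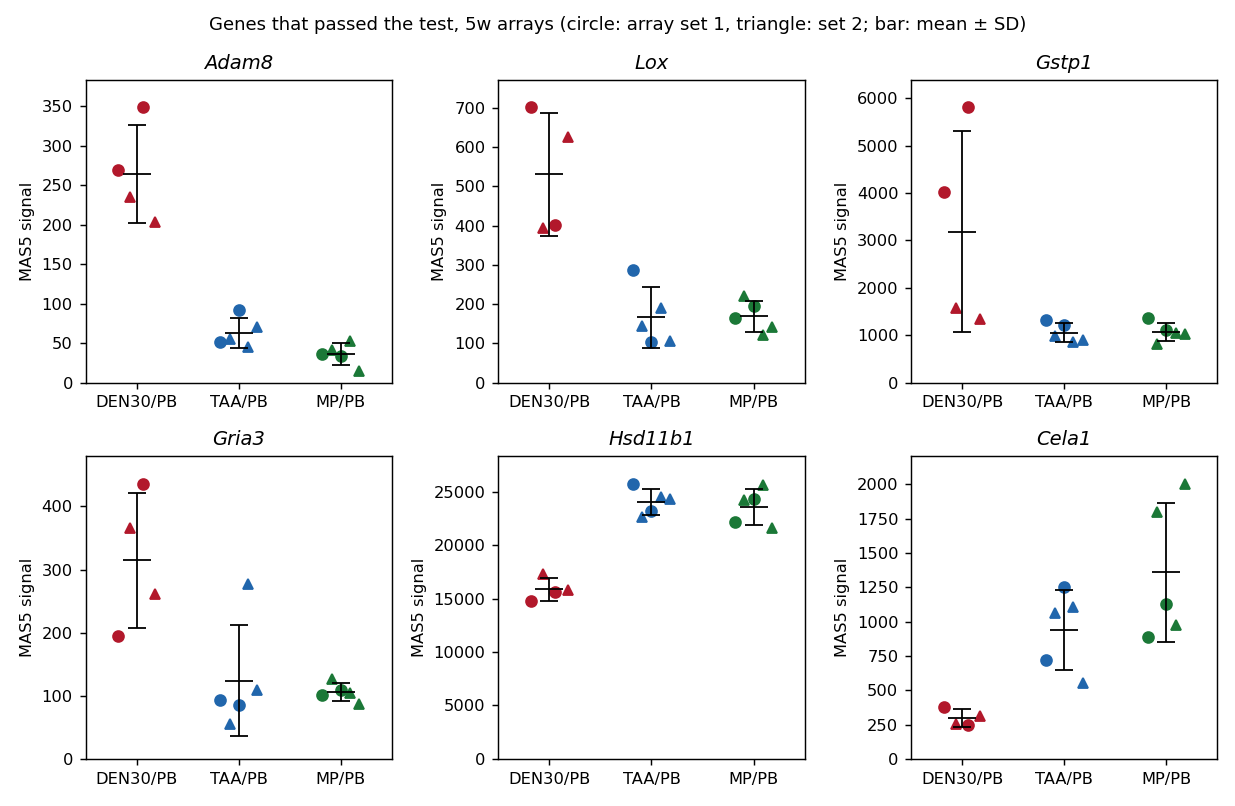
MAS5 signal (vertical axes, linear from 0) of the 6 genes that passed, by group, with 1 point per animal and bars for mean ± SD. Adam8, Lox, Hsd11b1 and Cela1 do not overlap between DEN30/PB and the other groups, whereas Gstp1 and Gria3 each do through 1 array.

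Against each carcinogen alone, 5 genes passed against TAA/PB (0.0477%; 693 at an unadjusted p below 0.05) and 3 against MP/PB (0.0286%; 874), with Adam8 the 1 gene higher than in MP/PB (0.00953%). Adam8, Hsd11b1 and Cela1 passed in both. The TAA/PB comparison added Lox and Hadh, the mitochondrial short-chain hydroxyacyl-CoA dehydrogenase of fatty acid oxidation, at -0.36 (adjusted p = 0.0453). Hadh differed by -0.20 against MP/PB (adjusted p = 0.422). Whether the effects against TAA/PB and MP/PB differ is the contrast of TAA/PB with MP/PB, and for the 6 genes its adjusted p lay between 0.753 and 0.996. For Adam8 that contrast was 0.54 ± 0.24 and for Cela1 -0.51 ± 0.23, so differences of this size between the non-genotoxic groups were not resolved.

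**Figure D3:**
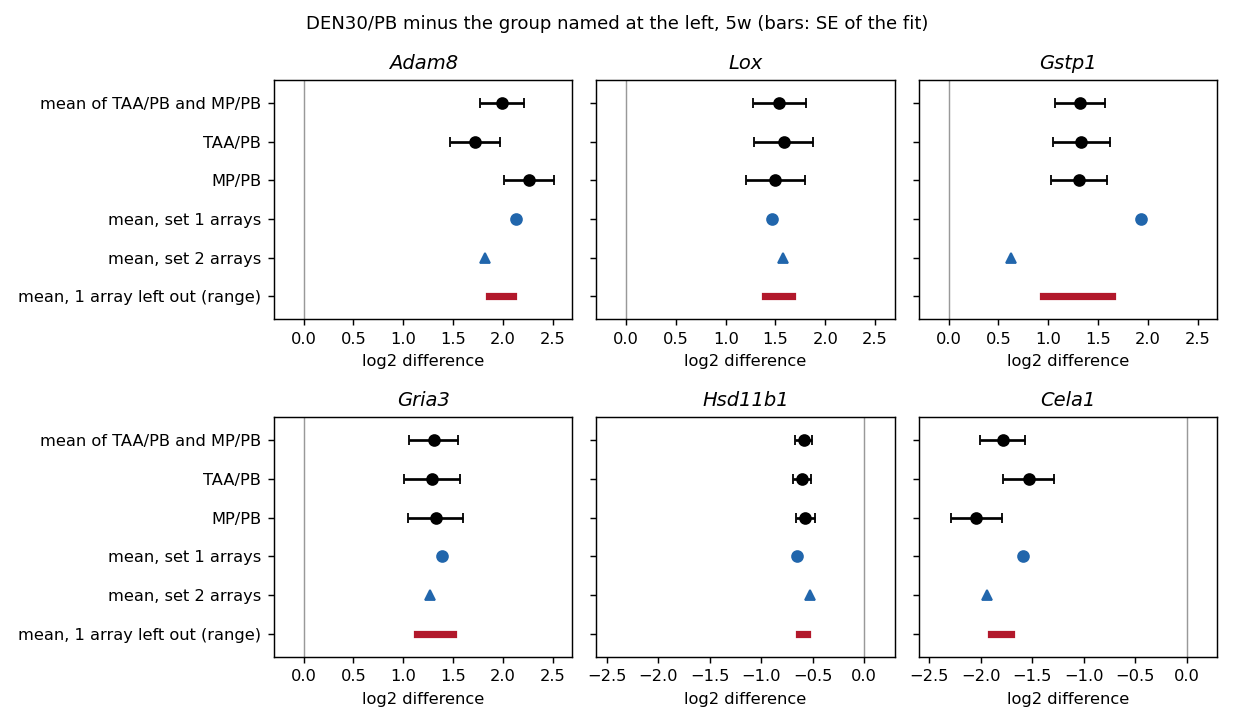
Log2 difference of DEN30/PB (horizontal axes) for the 6 genes against the mean of TAA/PB and MP/PB, each group alone, within each array set, and over the 14 fits that leave out 1 array (red bar, lowest to highest); bars on black points are SE. Gstp1 ranges most, from 0.62 in set 2 to 1.93 in set 1, while Hsd11b1 stays between -0.65 and -0.52.

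In the fits of a single array set, 1 gene passed in set 1 (Gstp1) and 0 in set 2, where limma gave 707 genes at an unadjusted p below 0.05. The 6 genes were selected on these same arrays, so agreement in direction between the sets is not independent support. The differences themselves kept their direction in both sets for all 6 genes. For Adam8 they were 2.14 and 1.82, for Lox 1.46 and 1.58, for Gria3 1.39 and 1.27, for Hsd11b1 -0.65 and -0.52, and for Cela1 -1.59 and -1.94.

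The lower diethylnitrosamine dose (DEN3/PB, 3 mg/kg) and acetaminophen (APAP/PB, 1000 mg/kg), given with PB in the same study, supply levels with no test. Adam8 in the 5 DEN3/PB livers was 382, 355, 191, 175 and 567, and all 5 lay above every TAA/PB and MP/PB array. In the 4 APAP/PB livers Adam8 was 55.2, 42.8, 69.8 and 45.4, each under the minimum of 100. Lox in DEN3/PB was 217, 257, 153, 363 and 471, with 2 of 5 livers above every TAA/PB and MP/PB array.

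Gstp1 in DEN3/PB read 1274, 932, 1479, 1114 and 1006, with 1 of 5 livers above every TAA/PB and MP/PB array. Gria3 in DEN3/PB, 195, 244, 242, 186 and 270, lay wholly above MP/PB but below the highest TAA/PB array. Hsd11b1 in DEN3/PB was 18951, 24818, 19315, 21724 and 20809, with 3 of 5 livers below every TAA/PB and MP/PB array. Cela1 in DEN3/PB was 700, 1335, 665, 743 and 1006, inside the range of the TAA/PB and MP/PB livers. In APAP/PB, Gstp1 ranged from 678 to 1106, Gria3 from 43.6 to 90.6, Hsd11b1 from 21912 to 26249 and Cela1 from 1125 to 1438, so no APAP/PB liver entered the DEN30/PB range of these 4 genes.

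At the end of the study the same animals had Gstp1 signals of 11907, 4174, 13557 and 2634 in DEN30/PB, and no TAA/PB or MP/PB liver exceeded 1644. The 10w difference was 2.67, and DEN30/PB no longer overlapped TAA/PB or MP/PB. The DEN3/PB livers ranged from 894 to 4357 at 10w (median 2041), which overlapped DEN30/PB. In all 4 DEN30/PB animals the signal was higher at 10w than at 5w, by 1.95 to 2.96 times. Replicates 1 and 3 were again higher than replicates 2 and 4, and these pairs lay in array sets 1 and 2 at 10w too, so the animal and the array set cannot be told apart here. Adam8 and Lox were lower at 10w than at 5w in all 4 DEN30/PB animals, and their 10w differences were 0.60 and 0.93 with overlapping groups. Gria3 (1.01), Hsd11b1 (-0.26) and Cela1 (-1.22) also overlapped at 10w.

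**Figure D4:**
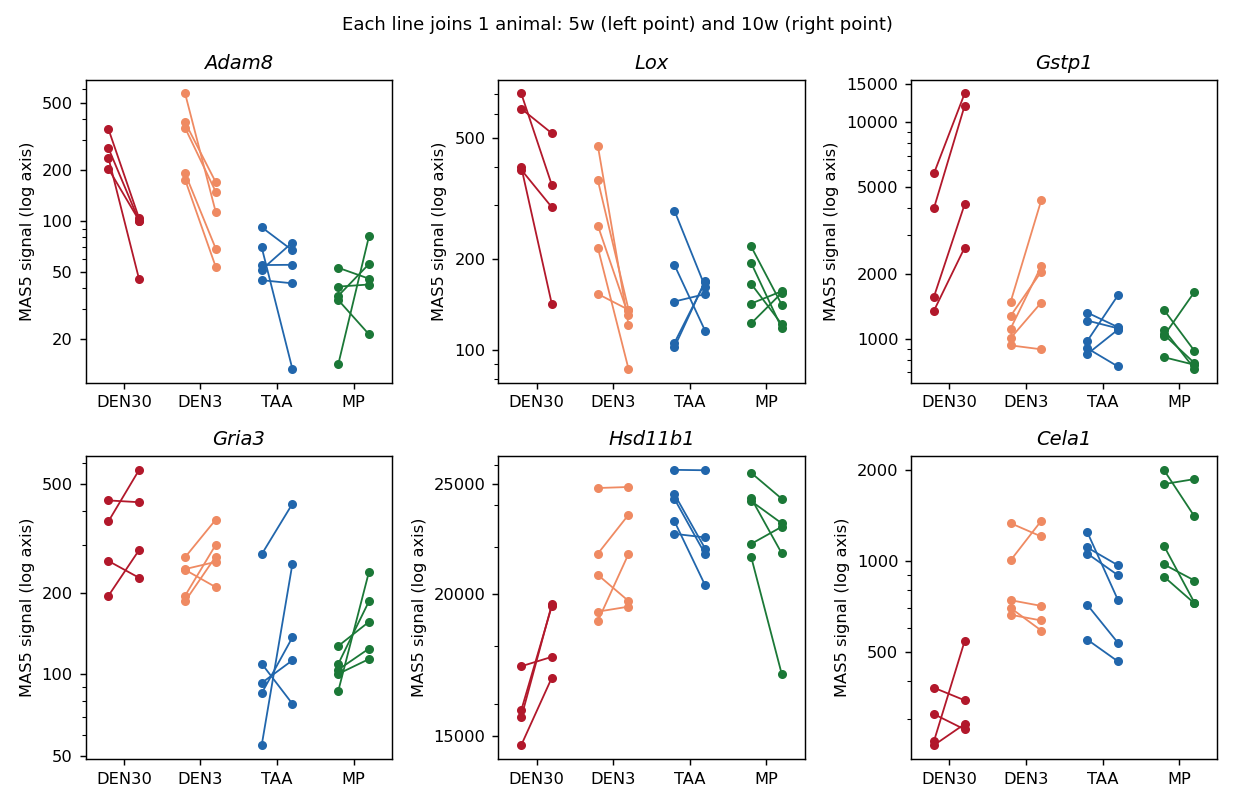
MAS5 signal (log axes) of the 6 genes in DEN30/PB, DEN3/PB, TAA/PB and MP/PB, each line joining the 5w (left) and 10w (right) samples of 1 animal. Gstp1 rises along every DEN30/PB line, to between 2634 and 13557, while Adam8 descends along every DEN30/PB line.

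Arrays of DEN30/PB lay wholly apart from the 10 others in 43 genes at 5w (0.41% of genes tested), above in 25 (0.238%) and below in 18 (0.172%). At 10w there were 50 such genes (0.477%). In 4 genes the groups were apart on the same side at both weeks, 9.3% of the 5w genes and 8% of the 10w genes. These 4 were chosen for naming after their values were seen. Akr1b8 and Slc28a2, a concentrative nucleoside transporter, lay above, and Crp, the C-reactive protein, and Azgp1, a zinc-binding plasma glycoprotein, lay below.

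Akr1b8 encodes an aldo-keto reductase and is listed with the markers of foci. Its signals were 267, 442, 453 and 363 in DEN30/PB, against 120, 113, 128, 103 and 68.6 in TAA/PB and 100.1, 17.3, 97.6, 197 and 146 in MP/PB. The log2 difference of 1.68 ± 0.37 did not pass (adjusted p = 0.107). At 10w the DEN30/PB signals were 1207, 1758, 1841 and 1036, and the highest TAA/PB or MP/PB liver was 343. In DEN3/PB at 5w Akr1b8 read 33.5 to 160.0, inside the range of the TAA/PB and MP/PB livers. At 10w the DEN3/PB livers read 231 to 683 (median 354).

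The genes with the next smallest p also did not pass. On the higher side were Fbxo3, an F-box subunit of a ubiquitin ligase (0.36 ± 0.07, adjusted p = 0.0680), Tmem30b, a subunit of phospholipid flippases (0.92 ± 0.20, 0.107), Rtn4, a reticulon of the endoplasmic reticulum (0.77 ± 0.18, 0.176), Cxcl16, a chemokine (0.70 ± 0.17, 0.180), and Ccdc85c (0.48 ± 0.12, 0.180). Fbxo3 and Cxcl16 signals did not overlap between groups. For Fbxo3, all 4 APAP/PB livers (6271 to 7238) also lay above every TAA/PB and MP/PB array, as did 1 of 5 DEN3/PB livers. On the lower side were C8h11orf52 (-0.47 ± 0.11, 0.111), Hadh (-0.28 ± 0.06, 0.111), Vkorc1, the vitamin K epoxide reductase (-0.37 ± 0.09, 0.182), and Fabp12, a fatty acid binding protein (-0.44 ± 0.11, 0.196). Gucy1b2, a guanylate cyclase subunit, Rabac1, a Rab acceptor, Aspdh, and Sgpl1, the sphingosine-1-phosphate lyase, differed by -0.42, -0.33, -0.27 and -0.53, with adjusted p between 0.196 and 0.254. C8h11orf52 and Hadh did not overlap between groups.

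Gene lists for the biology of the carcinogens are given by counts and medians, beside 4.26% of all genes higher and 3.49% lower at an unadjusted p below 0.05 and an all-gene median of 0.01. Of 20 measured p53 targets, 0 passed, and 4 were higher (20%) and 0 lower at an unadjusted p below 0.05. The median was 0.10, and 17 of 20 lay above 0, against 53.5% of all genes. Cdkn1a, the p53-induced cell cycle inhibitor, had a range of 747 to 977 in DEN30/PB, 509 to 825 in TAA/PB and 516 to 796 in MP/PB, a difference of 0.50 ± 0.18 (adjusted p = 0.489) with overlapping groups. Ccng1, cyclin G1, differed by 0.38 ± 0.13 (adjusted p = 0.484), the noncoding Pvt1 by 0.60 ± 0.18 (adjusted p = 0.378) and Mdm2, the p53 ubiquitin ligase, by 0.13 ± 0.10 (adjusted p = 0.836).

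Of 32 DNA repair genes, 0 passed and 0 had an unadjusted p below 0.05 in either direction, with a median of 0.00 and a range of -0.25 to 0.34. Mgmt, which removes alkyl groups from guanine, differed by 0.29 ± 0.19 (adjusted p = 0.778), by 0.79 within array set 1 and by -0.18 within set 2. H2ax, the histone variant phosphorylated at DNA breaks, differed by 0.31 ± 0.16, and Chek1, a checkpoint kinase, by 0.34 ± 0.18 (adjusted p = 0.668 and 0.681). Of 43 cell cycle genes, 0 passed, 2 were higher and 0 lower at an unadjusted p below 0.05, and the median was 0.07 (0.24 in set 1 and -0.06 in set 2). Ccnd1, cyclin D1, differed by 0.64 ± 0.21 (adjusted p = 0.391), Mki67 by 0.20 ± 0.20 (0.882) and Top2a by -0.02 ± 0.22 (0.991).

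Among 16 markers of preneoplastic foci, 1 passed, Gstp1, which the list holds by definition, and the median was 0.20. At an unadjusted p below 0.05, 2 were higher and 1 was lower. The lower one was Ephx1, at -0.22 ± 0.08 (adjusted p = 0.529). Ggt1, the gamma-glutamyltransferase used to stain foci, ranged from 153 to 269 in DEN30/PB, 75.2 to 218 in TAA/PB and 92.5 to 243 in MP/PB, a difference of 0.35 ± 0.26 (adjusted p = 0.812). At 10w Ggt1 ranged from 313 to 690 in DEN30/PB and reached at most 300 in TAA/PB and MP/PB, with a difference of 1.33. In APAP/PB it reached 338 at 10w. Gpx2, a glutathione peroxidase, differed by 0.27 ± 0.58 (adjusted p = 0.956), a value near the floor. It was under the minimum of 100 on 3 of 4 DEN30/PB, 3 of 5 TAA/PB and all 5 MP/PB arrays. Afp, the fetal albumin-like protein, is not in this list and differed by 0.30 ± 0.12 (adjusted p = 0.537). Of 23 NRF2 targets, the oxidative and electrophile response genes, 1 passed (Gstp1), with 2 higher and 3 lower at an unadjusted p below 0.05 and a median of 0.00.

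Of 10 bioactivating enzymes, 0 passed and the median was -0.03. Cyp2e1, which activates diethylnitrosamine and thioacetamide, differed by 0.16 ± 0.10 (adjusted p = 0.760). Fmo1, a flavin monooxygenase, differed by 0.59 ± 0.23 (adjusted p = 0.529) and Cyp2c11, the male-specific cytochrome P450, by -0.20 ± 0.06 (adjusted p = 0.379). Of 20 genes of the glucocorticoid and fasting response, 0 passed, 2 were higher and 1 lower at an unadjusted p below 0.05, and the median was -0.04.

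Of 42 extracellular matrix and stellate cell genes, 1 passed (Lox), with 5 higher and 1 lower at an unadjusted p below 0.05 and a median of 0.15. Col1a1, a chain of type I collagen, differed by 0.39 ± 0.21 (adjusted p = 0.693). Loxl1, a lysyl oxidase relative, ranged from 68.2 to 164 in DEN30/PB and was under the minimum of 100 on all 10 other arrays, and it did not pass (adjusted p = 0.397). Tgfb2, a TGF-beta ligand, was under the minimum on all 4 DEN30/PB arrays and 24.02 to 124 on the others, and did not pass (adjusted p = 0.598). No size is given for either. The summed signal of the 43 matrix and stellate genes with a probe set was 69770 to 83453 in DEN30/PB, 71918 to 85375 in TAA/PB and 76395 to 86886 in MP/PB. These sums overlapped between groups, whereas Lox did not. The part of stellate cell number in the Lox difference was not tested.

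In the immune lists most members lay above 0, 39 of 47 for interferon and antigen presentation, 17 of 21 for T, B and NK cells, 18 of 22 for macrophages and 5 of 6 for neutrophils, against 53.5% of all genes. None of these immune members passed (0 in each list). Other lists leaned the same way, with 17 of 20 p53 targets and 13 of 16 focus markers above 0. So did 31 of 42 matrix and stellate genes and 31 of 43 cell cycle genes. Adam8 is listed with chemokines, cytokines and adhesion genes. Of 47 interferon and antigen presentation genes, 9 were higher and 1 lower at an unadjusted p below 0.05 (19.1% and 2.13%), and the median was 0.25. The members ranged from -1.32 to 1.62. RT1-CE5, a class I histocompatibility gene, differed by 1.62 ± 0.40 (adjusted p = 0.182), and its DEN30/PB signals of 275 to 456 lay above all others. RT1 class I genes are near-identical copies whose probes may share transcripts, so its value is uncertain. Ciita, the master regulator of class II genes, differed by 0.58 ± 0.16 (adjusted p = 0.271), and RT1-DMb, a class II loading factor, by 0.55 ± 0.19 (adjusted p = 0.434). Within array sets 1 and 2, RT1-DMb differed by 0.18 and 0.85, and Ciita by 0.74 and 0.45.

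Of 21 T, B and NK cell markers, 3 were higher and 0 lower at an unadjusted p below 0.05. The median was 0.21 (0.09 in set 1 and 0.20 in set 2). Ptprc (CD45, carried by all leukocytes) ranged from 482 to 720 in DEN30/PB, 343 to 638 in TAA/PB and 291 to 382 in MP/PB, a difference of 0.62 ± 0.15 (adjusted p = 0.180). Within array sets 1 and 2 the Ptprc difference was 0.29 and 0.91. The summed signal of 28 lymphocyte markers with a probe set was 4801 to 5925 in DEN30/PB, 3650 to 5264 in TAA/PB and 4046 to 5070 in MP/PB. Of 22 Kupffer cell and macrophage markers, 0 passed, 2 were higher and 1 lower at an unadjusted p below 0.05. Their median was 0.15, but -0.13 within array set 1 and 0.42 within set 2. Summed macrophage signals (26 markers) were 29091 to 41242 in DEN30/PB, 27669 to 42125 in TAA/PB and 26636 to 36483 in MP/PB.

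Of 6 neutrophil markers tested, 0 passed or had an unadjusted p below 0.05, with a median of 0.36 (-0.02 in set 1 and 0.74 in set 2). S100a8, Csf3r and Itgam, the last a member of the macrophage list, were under a signal of 100 on all 14 arrays. S100a9 ranged from 92.5 to 201 in DEN30/PB and from 38.4 to 263 in TAA/PB and MP/PB. Ncf4 (210 to 295) and Fcgr3a (254 to 547) exceeded 100 on every DEN30/PB array, and both overlapped the other groups. Summed neutrophil signals (12 markers) were 1124 to 1704, 817 to 1536 and 827 to 1437 in DEN30/PB, TAA/PB and MP/PB. The leukocyte sums overlapped between groups whereas Adam8, a gene of leukocytes, did not. The part of leukocyte number in the Adam8 difference was not tested.

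Of 33 hepatocyte function genes, 0 passed, 0 were higher and 9 lower at an unadjusted p below 0.05 (27.3%), and 31 of 33 lay below 0, against 46.5% of all genes. Of 23 periportal hepatocyte genes 13 lay below 0 (median -0.03), and of 22 perivenous genes 10 did (median 0.04). The median of the hepatocyte function list was -0.11, with Tdo2, the tryptophan dioxygenase, at -0.18 ± 0.06 (adjusted p = 0.420) and Apoa2 at -0.17 ± 0.06 (adjusted p = 0.499). Summed hepatocyte signals were 991923 to 1053480 in DEN30/PB, 1068060 to 1193920 in TAA/PB and 1043330 to 1190240 in MP/PB. DEN30/PB lay below TAA/PB and overlapped MP/PB narrowly. Hsd11b1, a hepatocyte enzyme, differed by -0.59, whereas the lowest member of this list differed by -0.27, and the part of hepatocyte RNA share in it was not tested. Of 44 oxidative phosphorylation subunits, 0 passed and 9 were lower at an unadjusted p below 0.05 (20.5%), with a median of -0.09. Of 23 acute-phase plasma proteins, 0 passed and 18 lay below 0, with 6 lower and 0 higher at an unadjusted p below 0.05 and a median of -0.10.

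**Figure D5:**
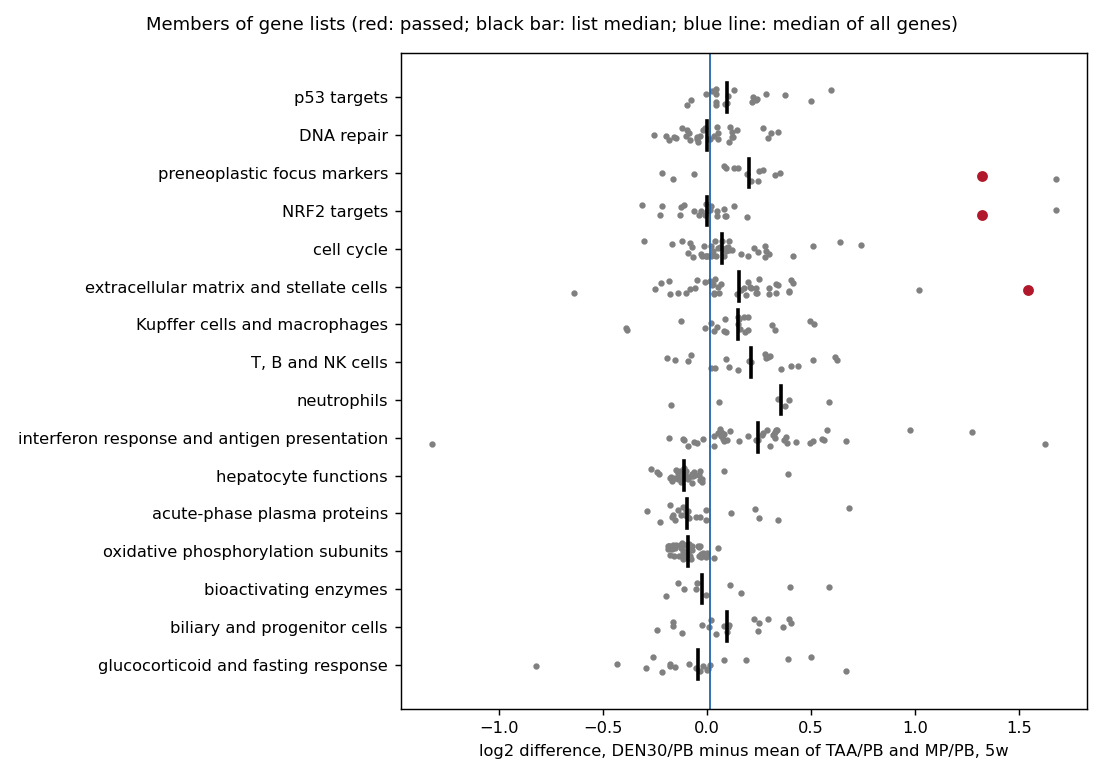
Log2 difference at 5w (horizontal axis) of every tested member of 16 gene lists (1 point per gene; red, passed; black bar, list median; blue line, all-gene median of 0.01). Interferon and lymphocyte members sit mostly to the right (medians 0.25 and 0.21) and hepatocyte function and oxidative phosphorylation members mostly to the left (-0.11 and -0.09), with Gstp1 (1.32) and Lox (1.54) the only members shown that passed.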

How the data were processed

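RNA from 62 liver samples of 31 rats had been hybridised to Affymetrix microarrays. The deposited values are linear intensity signals that the authors computed with MAS5 5.0, per the submitters' processing notes. All arrays shared a trimmed mean near 500.2 in the deposited table. Of 31099 probe sets, 20826 had 1 symbol, 436 had several and 9780 had none; control probe sets numbered 57. Only probe sets with 1 symbol were used, except in the settings with all probe sets.

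An offset of 25 was added before the log2 step. Probe sets were kept if the signal reached 100 on at least 4 of the 31 arrays of 5w, and the brightest probe set stood for a gene. Contrasts came from lmFit, contrasts.fit and eBayes (with trend) of limma 3.58.1 under R 4.3.3, two-sided, with Benjamini-Hochberg adjustment over all 10491 genes. All 31 arrays of 5w gave the spread, but vehicle groups and the other initiators entered no contrast. The number of arrays limits the precision. The steps were tested on simulated data.

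The genes and the 35 lists were chosen with earlier results of these data known. Named genes were those that passed with groups apart (15 largest per direction), completed by smallest p to 10 per direction, up to 3 members per described list, and fixed markers; Bax, a fixed marker, was not among the genes tested. Names outside this rule are said to be so, apart from Alb, S100a8, Csf3r and Itgam, which are also outside it and served as cell type markers. The TAA/PB against MP/PB contrast, in which 1 gene passed (Pbsn, 4.39 higher in TAA/PB, adjusted p = 0.0092, named after its value was seen; 655 at an unadjusted p below 0.05), and the setting of all probe sets without the filter were added after seeing the data. Array sets are the sign of the first residual component. Second probe sets were fitted with all probe sets and no filter. Values at 10w, in DEN3/PB and in APAP/PB were given without a test. The same replicate number in different groups names different animals: 6 of 8 such pairs correlated above 0.1 in their residuals, and all 8 lay in the same array set. Pairing was to be used only if every pair exceeded 0.1, so the block is an alternative. Alternatives were other offsets, filters and normalization, all probe sets, the compared groups alone, replicate and array set blocks, each array set alone, and leaving out each array. Figures were drawn with matplotlib 3.10.9, and promoters came from RefSeq tables on GRCr8.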

Additional observations from a re-analysis of the deposited data

Results flagged for a closer look

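Among 216 sets of values (72 named genes in 3 groups), 11 had an array far from the others of its group; chance alone marks about 1 in 20. On the high side were Vkorc1 in TAA/PB replicate 5 (11197, others 9435 to 9896), Spp1 in TAA/PB replicate 2 (171, others 102 to 117) and Ptprc in TAA/PB replicate 3 (638, others 343 to 407). RT1-DMb stood out in DEN30/PB replicate 2 (1131, others 771 to 792) and Apoa2 in DEN30/PB replicate 1 (43494, others 37001 to 37869). Ndufb6 was high in TAA/PB replicate 1 (5643, others 4942 to 5130), Uqcrq in MP/PB replicate 1 (18786, others 14258 to 15248) and Ezr in TAA/PB replicate 3 (336, others 247 to 250). On the low side were Rabac1 in MP/PB replicate 3 (3293, others 3650 to 3687), Loxl1 in MP/PB replicate 2 (11.4, others 58.4 to 86.3) and RT1-CE5 in TAA/PB replicate 3 (6.42, others 106 to 192). Without TAA/PB replicate 3, Ptprc passed (0.69, adjusted p = 0.0336).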

How the results depend on the processing

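Against the mean of TAA/PB and MP/PB, 6 genes passed. The count was 1 in array set 1 alone and 0 in set 2 alone, which hold fewer arrays, and 4 to 7 when 1 array was left out. Under the other 10 settings it was between 4 and 9. With only the compared groups 7 genes passed, 4 of them among the 6.

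Against TAA/PB, 5 genes passed. The count was 3 with all probe sets, with or without the filter, 1 in set 1, 0 in set 2, and 3 to 7 with an array left out (3 without DEN30/PB replicate 1 or TAA/PB replicate 5). Against MP/PB, 3 passed. The count was 6 with only the compared groups, 15 with the array set as a block, 1 in set 1, 0 in set 2, and 3 to 7 with an array left out (6 without DEN30/PB replicate 2, 7 without replicate 3).

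With the replicate number as a block, 9 genes passed against the mean, 4 against TAA/PB and 9 against MP/PB. Residuals of same-numbered arrays correlated at 0.07 to 0.24 in 8 pairs, and 6 of 8 arrays matched best with their own number, a hint from the data of sharing by number. All 8 pairs also shared an array set, so number and set cannot be told apart in them.

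Of the 66 named genes that did not pass, 1676 of 1701 values kept their direction and side of the threshold, 12 passed, and 13 values of 6 genes changed sign. These were Gpx2 in set 2 (-0.41) and without DEN30/PB replicate 3 (-0.24), Mdm2 in set 2 (-0.014), Mgmt in set 2 (-0.18), Cd36 in set 2 (0.033), S100a9 in set 1 (-0.087) and Top2a with the replicate block (0.028), in set 1 (0.31) and without DEN30/PB replicate 2 or 4, TAA/PB replicate 4 or MP/PB replicate 3 or 4. With an array left out, Top2a ranged from -0.19 to 0.13 and Gpx2 from -0.24 to 0.54. Fbxo3 passed with quantile normalization, with either block and without MP/PB replicate 4, and Akr1b8 with an offset of 50. The cause of these changes was not tested.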
